A study of Mus musculus with 8 samples.

Results

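The creatine kinases of the developing mouse diaphragm were followed as a family of 4 genes, *Ckm*, *Ckb*, *Ckmt2* and *Ckmt1*, chosen by symbol from the 19465 genes of the probe set. All 4 have a probe and UMIs in these data, and their counts (unique molecular identifiers, 1 per captured probe molecule) were read in 8 sections by stage, genotype and position of the spots. The sections are 10x Visium FFPE libraries of 5 µm horizontal slices, read on spots 55 µm wide and 100 µm apart, so that each spot mixes RNA from several cells. The questions set by the design are how these genes change between embryonic days E14.5 and E18.5, what loss of CaV1.1 or of muscle β-catenin does to them, and where in the diaphragm they are found.

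Control diaphragms were sampled at E14.5 (n = 3 sections) and at E18.5 (n = 2 sections), and per the study's methods control embryos carried at least 1 functional allele each of CaV1.1 and of β-catenin, so that some may be heterozygous or carry the Cre. CaV1.1 KO embryos, at E14.5 and at E18.5 with 1 section each, are CaV1.1-/- mice of the dysgenic (*mdg*) line, which lack the pore-forming subunit and voltage sensor of the skeletal muscle calcium channel in all cells. The β-cat cKO, 1 section at E18.5, is HSA-Cre; β-catenin flox/flox, in which the human skeletal actin promoter drives Cre and deletes β-catenin in skeletal muscle. Per the same methods, the cKO came from parents that were both CaV1.1+/- and carried floxed β-catenin, and KO embryos came from that cross or from CaV1.1+/- parents. The cKO may thus be heterozygous for CaV1.1, and a KO embryo may carry floxed β-catenin or the Cre. The 3 mutant groups have no replicate, and a difference from the controls in them may be that of 1 embryo or 1 section. Where nothing says that sections came from separate litters, the p-values for stage and genotype measure the spread between control sections. Those for position, from fits that block on section, measure how a difference within sections varies between sections.

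Creatine kinases move a phosphate group between ATP and creatine, which lets muscle store energy as phosphocreatine and hand it from mitochondria to the myofibrils and ion pumps. *Ckm* encodes the cytosolic muscle subunit, part of which is bound to the M-band of the sarcomere, and *Ckb* the cytosolic brain subunit, made in brain, smooth muscle and many embryonic tissues. *Ckmt2* encodes the sarcomeric mitochondrial enzyme of striated muscle, and *Ckmt1* the ubiquitous mitochondrial enzyme of brain and epithelia. In developing skeletal muscle the brain subunit comes first and the muscle subunit takes its place as fibers mature.

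On GRCm38 *Ckm* (ENSMUSG00000030399) lies at chr7:19404776-19422841 on the plus strand, *Ckb* (ENSMUSG00000001270) at chr12:111669361-111672338 on the minus strand, *Ckmt2* (ENSMUSG00000021622) at chr13:91853387-91876885 on the minus strand and *Ckmt1* (ENSMUSG00000000308) at chr2:121357714-121363737 on the plus strand. The 250 bases before the RefSeq transcription start (GRCm38.p6) are shown for the 3 genes with 1 start site, because *Ckm* and *Ckmt2* both rose with stage in control muscle and *Ckb* did not. They cover chr7:19410844-19411093 (*Ckm*, plus strand), chr13:91876886-91877135 (*Ckmt2*, minus strand) and chr12:111672339-111672588 (*Ckb*, minus strand), and capitals mark matches, on either strand, to the E-box CANNTG, which myogenic bHLH factors can bind, and to the TATA motif TATANA.
Ckm: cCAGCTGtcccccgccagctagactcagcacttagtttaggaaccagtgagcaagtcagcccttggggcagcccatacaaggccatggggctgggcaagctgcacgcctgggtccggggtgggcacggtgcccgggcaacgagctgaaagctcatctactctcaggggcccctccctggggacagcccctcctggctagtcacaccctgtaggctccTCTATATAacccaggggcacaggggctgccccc
Ckmt2: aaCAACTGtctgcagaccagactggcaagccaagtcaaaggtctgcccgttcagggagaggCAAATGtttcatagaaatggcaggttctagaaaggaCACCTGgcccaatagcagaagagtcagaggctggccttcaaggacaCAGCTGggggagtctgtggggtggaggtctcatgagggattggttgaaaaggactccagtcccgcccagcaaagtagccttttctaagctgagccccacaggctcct
Ckb: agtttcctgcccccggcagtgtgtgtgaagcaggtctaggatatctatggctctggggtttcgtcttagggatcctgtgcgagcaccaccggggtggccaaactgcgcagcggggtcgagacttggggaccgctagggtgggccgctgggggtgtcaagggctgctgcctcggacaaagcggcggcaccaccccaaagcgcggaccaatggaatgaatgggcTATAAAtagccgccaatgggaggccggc
*Ckm* has 1 E-box, CAGCTG at 249 to 244 bases before the start, and overlapping TATA matches between 33 and 26 bases before it. *Ckmt2* has 4 E-boxes, which begin 248, 189, 153 and 107 bases before the start, and no TATA match. *Ckb* has no E-box and a TATAAA 28 to 23 bases before the start, which overlaps a MEF2 match at 29 to 20 bases. Of 32851 mouse promoter windows of this length 66.2% hold an E-box, 22.6% a TATA match and 1.69% a MEF2 match, so an E-box is common. *Ckmt1* has 2 RefSeq start sites. The RefSeq start of *Ckm*, at 19411094, lies inside the gene span given above, which comes from another annotation and begins at 19404776. Bases before the start of that span were not examined.

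Spots with at least 1000 UMIs, 683 to 3460 per section, were kept. All spots under tissue together held 14179161 to 82859104 UMIs per section, at a median of 15434 to 45284 per spot. Space Ranger 2.0.0 made the files of E14.5 controls 1 and 2 and of the KO at E14.5, and 2.0.1 the rest, so that version and stage largely go together. Muscle spots are those above Otsu's threshold for 9 sarcomere and triad genes, 549, 571 and 581 spots in the E14.5 controls, 3092 and 2199 in the E18.5 controls, 491 and 813 in the KO at E14.5 and E18.5, and 1577 in the cKO. All remaining spots, 102 to 580 per section, are called other spots. The targeted genes were read first. *Cacna1s*, the gene of CaV1.1, stood at 16.5, 14.96 and 18.4 TMM-scaled CPM in the E14.5 control muscle and 13.4 in the KO, and at 84.4 and 87.3 in the E18.5 controls, 29.7 in the KO and 70.4 in the cKO. *Ctnnb1*, the gene of β-catenin, stood at 96.2 in the cKO and at 105 and 97.4 in its controls. Where the probes lie relative to the altered exons was not analysed here, and in the cKO other cell types keep the gene, so these levels do not test the labels.

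In control diaphragms *Ckm* and *Ckmt2* were muscle genes at both stages. Levels are TMM-scaled CPM (UMIs scaled to a common library total, after edgeR's correction for RNA composition) of UMIs summed over the spots of a section. The correction was made within each fit, so the same spots have somewhat different levels in the fits of later paragraphs. *Ckm* stood at 1449, 980 and 1004 in muscle spots and at 297, 177 and 174 in other spots of the 3 E14.5 controls, and at 30525 and 29438 against 6970 and 4666 in the E18.5 controls. Muscle was above other spots in each section. The log2 difference was 2.43 ± 0.14 (SE; adjusted p = 1.38e-04) at E14.5 and 2.39 ± 0.17 (adjusted p = 6.40e-05) at E18.5, from edgeR's quasi-likelihood fit that blocks on section. *Ckmt2* stood at 64.7, 40.3 and 39.7 against 10.9, 6.26 and 6.61 at E14.5, and at 3211 and 3347 against 622 and 385 at E18.5. Its muscle levels again exceeded those of other spots in each section, by 2.62 ± 0.19 (adjusted p = 1.91e-04) and 2.74 ± 0.18 (adjusted p = 5.73e-05). The brain subunit behaved otherwise. *Ckb* was at 44.0, 35.4 and 35.3 in muscle and 38.0, 23.3 and 32.5 in other spots at E14.5 (0.34 ± 0.12, adjusted p = 0.0560, but called at 0.33 without E18.5 control 1, adjusted p = 0.041), and at 33.1 and 38.7 in muscle and 42.0 and 61.7 in other spots at E18.5 (-0.51 ± 0.13, adjusted p = 0.0143). *Ckmt1* was near its detection limit in muscle. It had 3, 3 and 3 UMIs in the muscle spots of the E14.5 controls and 25 and 97 in those at E18.5, and 21, 1 and 0 and then 45 and 42 in the far fewer other spots (E18.5 log2 difference -2.36 ± 0.74, adjusted p = 0.0300, -2.12 ± 1.09 at E14.5, adjusted p = 0.162). The 0 UMIs in 102 other spots of E14.5 control 3 allow up to 3 counts, or 2.25 CPM. At E14.5, 2 of the 4 genes were called, against 41% of all 14126 genes tested, and at E18.5 all 4 were called, against 57.9%. Of the stage differences of these effects, tested in the same fit, only that of *Ckb* was called with all sections (-0.85 ± 0.18, adjusted p = 0.0174, against 21% of all genes). The call for *Ckb* in muscle against other spots at E18.5 was lost without E18.5 control 2 (-0.35, adjusted p = 0.15), and that for *Ckmt1* without E18.5 control 1 (-1.29, adjusted p = 0.21). The stage difference of *Ckb* was lost without E14.5 control 2 (-0.69, adjusted p = 0.055) and without E18.5 control 2 (-0.68, adjusted p = 0.088), while that of *Ckmt2* was called without E18.5 control 1 (0.47, adjusted p = 0.043).

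**Figure D1:**
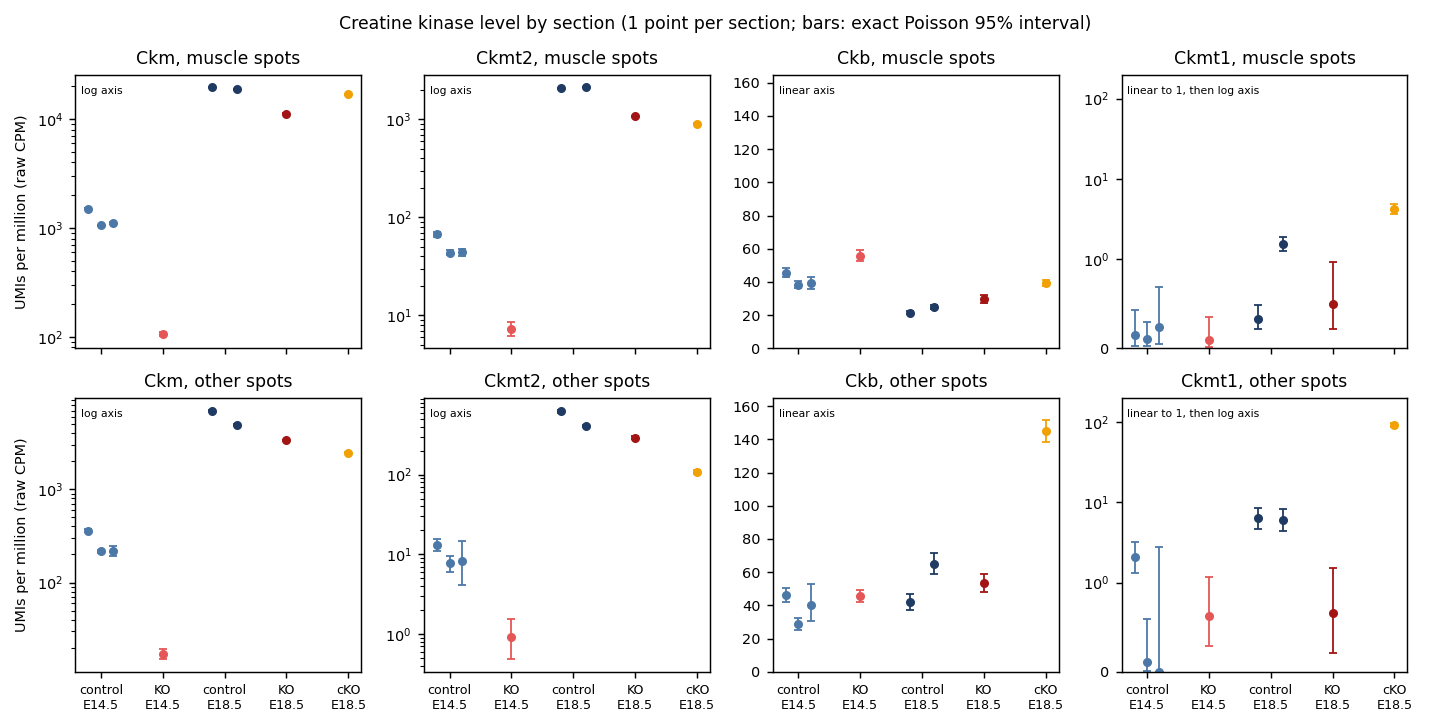
Level of each creatine kinase in muscle spots (top row) and other spots (bottom row), as raw CPM (UMIs of the gene per total UMIs of those spots, with no TMM correction) in each of the 8 sections, with exact Poisson 95% intervals that cover counting error only. The Ckm and Ckmt2 panels have log axes, the Ckb panels linear ones and the Ckmt1 panels axes that are linear to 1 and logarithmic above. Ckm in muscle lies at 1061 to 1501 in the E14.5 controls, 107 in the KO at E14.5, and 18719 and 19700 in the E18.5 controls, while Ckb stays between 21.4 and 55.8 in muscle of all sections.

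Between E14.5 and E18.5 the 2 muscle enzymes rose by 4.68 and 6.06 on the log2 scale, while the 9 genes used to find muscle spots had a median rise of 2.82 on the log2 scale. In muscle spots *Ckm* stood at 1309.9, 869 and 898 TMM-scaled CPM in the E14.5 controls (1026 ± 247, SD, n = 3) and at 27138 and 25589.5 in the E18.5 controls (26364 ± 1095, SD, n = 2). The groups do not overlap, and the fit of all 8 sections gave a 25.7-fold rise (log2 4.68 ± 0.21 SE, adjusted p = 1.81e-06, edgeR's quasi-likelihood test). *Ckmt2* rose 66.6-fold, from 58.5, 35.7 and 35.5 to 2855 and 2909 (log2 6.06 ± 0.25, adjusted p = 1.34e-06). Only 0.903% of genes tested had a larger rise than *Ckm*, and 0.330% a larger one than *Ckmt2*. *Ckb* was at 39.7, 31.4 and 31.6 and then at 29.5 and 33.6, which overlap (-0.12 ± 0.13, adjusted p = 0.437). *Ckmt1* rose by 3.34 ± 0.74 on the log2 scale (adjusted p = 0.00490) from 9 UMIs in all E14.5 control muscle to 122. In raw CPM this is a ratio of 6.15, with an exact 95% counting interval from 3.14 to 13.8, and 97 of the 122 UMIs came from E18.5 control 2. In all, 3 of the 4 genes were called higher, where 33.2% of 14832 genes were, and 65.6% were called in either direction. The TMM correction matters for *Ckb*: scaled by library size alone, it fell by 0.84 (adjusted p = 0.00025), and the median of all genes fell by 0.73. The choice of spots matters as well. In the more muscle-rich part of muscle spots, those above the median for the 9 genes, *Ckb* was called lower at E18.5 on the TMM scale. Scaled to the 9 genes that define muscle spots, the rise of *Ckmt1* was 0.19 and was not called, on a scale where the median of all genes fell by 3.19.

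The 9 muscle spot genes themselves, which include titin, nebulin, desmin and skeletal actin, made up 21642 to 27362 raw CPM of the E14.5 control muscle and 128417 and 131917 at E18.5, and each of the 9 was called higher. A larger share of muscle in a spot and more RNA per fiber cannot be told apart in such spots. Set against these genes, *Ckm* gave 54.9, 49.0 and 48.6 UMIs per 1000 UMIs of the 9 genes at E14.5 and 153 and 142 at E18.5, and *Ckmt2* 2.45, 2.02 and 1.92 and then 16.1 and 16.1. Both therefore stood higher at E18.5 on this scale too, with no overlap (*Ckm* log2 1.54 and *Ckmt2* 2.92 with scaling to the 9 genes, both called). *Ckb* went from 1.66, 1.77 and 1.71 to 0.167 and 0.186 per 1000, a log2 difference of -3.28 that lies near the -3.19 of the median gene on this scale. The balance between the muscle enzymes also moved. The probes yielded 0.0447, 0.0411 and 0.0395 *Ckmt2* UMIs per *Ckm* UMI at E14.5 and 0.105 and 0.114 at E18.5, a log2 difference of 1.39 (exact permutation test over sections, two-sided p = 0.1, the smallest that 10 splits allow). Such ratios compare sections only, since each probe has its own yield and UMIs of different genes are not a measure per length.

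The share of spots with a UMI was also read. *Ckm* was found in 99.5% to 99.6% of muscle spots of the E14.5 controls and in 100% at E18.5, and *Ckmt2* in 53.9% to 73.7% and then in 99.97% and 100%. *Ckb* was found in 50.6%, 75.0% and 54.6% of muscle spots at E14.5 and in 38.4% and 46.2% at E18.5, and *Ckmt1* in 0.52% to 0.55% and then in 0.71% and 3.91%. For genes with few UMIs such shares also depend on the UMIs per spot. Their medians were 18315, 45284 and 20245 in the E14.5 controls and 22899 and 27184 at E18.5, over all spots under tissue. Over all muscle spots the TMM-scaled level of *Ckb* was not called different between the stages. Over the more muscle-rich part of them it was called lower at E18.5. Across muscle spots the log-normalized values of *Ckm* and *Ckmt2* went together more closely at E18.5, with Pearson r of 0.32, 0.39 and 0.30 over 549, 571 and 581 spots at E14.5 and of 0.73 and 0.76 over 3092 and 2199 spots at E18.5. *Ckm* and *Ckb* had r of 0.00, 0.06 and 0.05 and then -0.18 and -0.28. These values describe spots that share a library, and *Ckmt2* had 565 to 1386 UMIs in the muscle spots of a section at E14.5 and at least 133946 at E18.5.

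**Figure D2:**
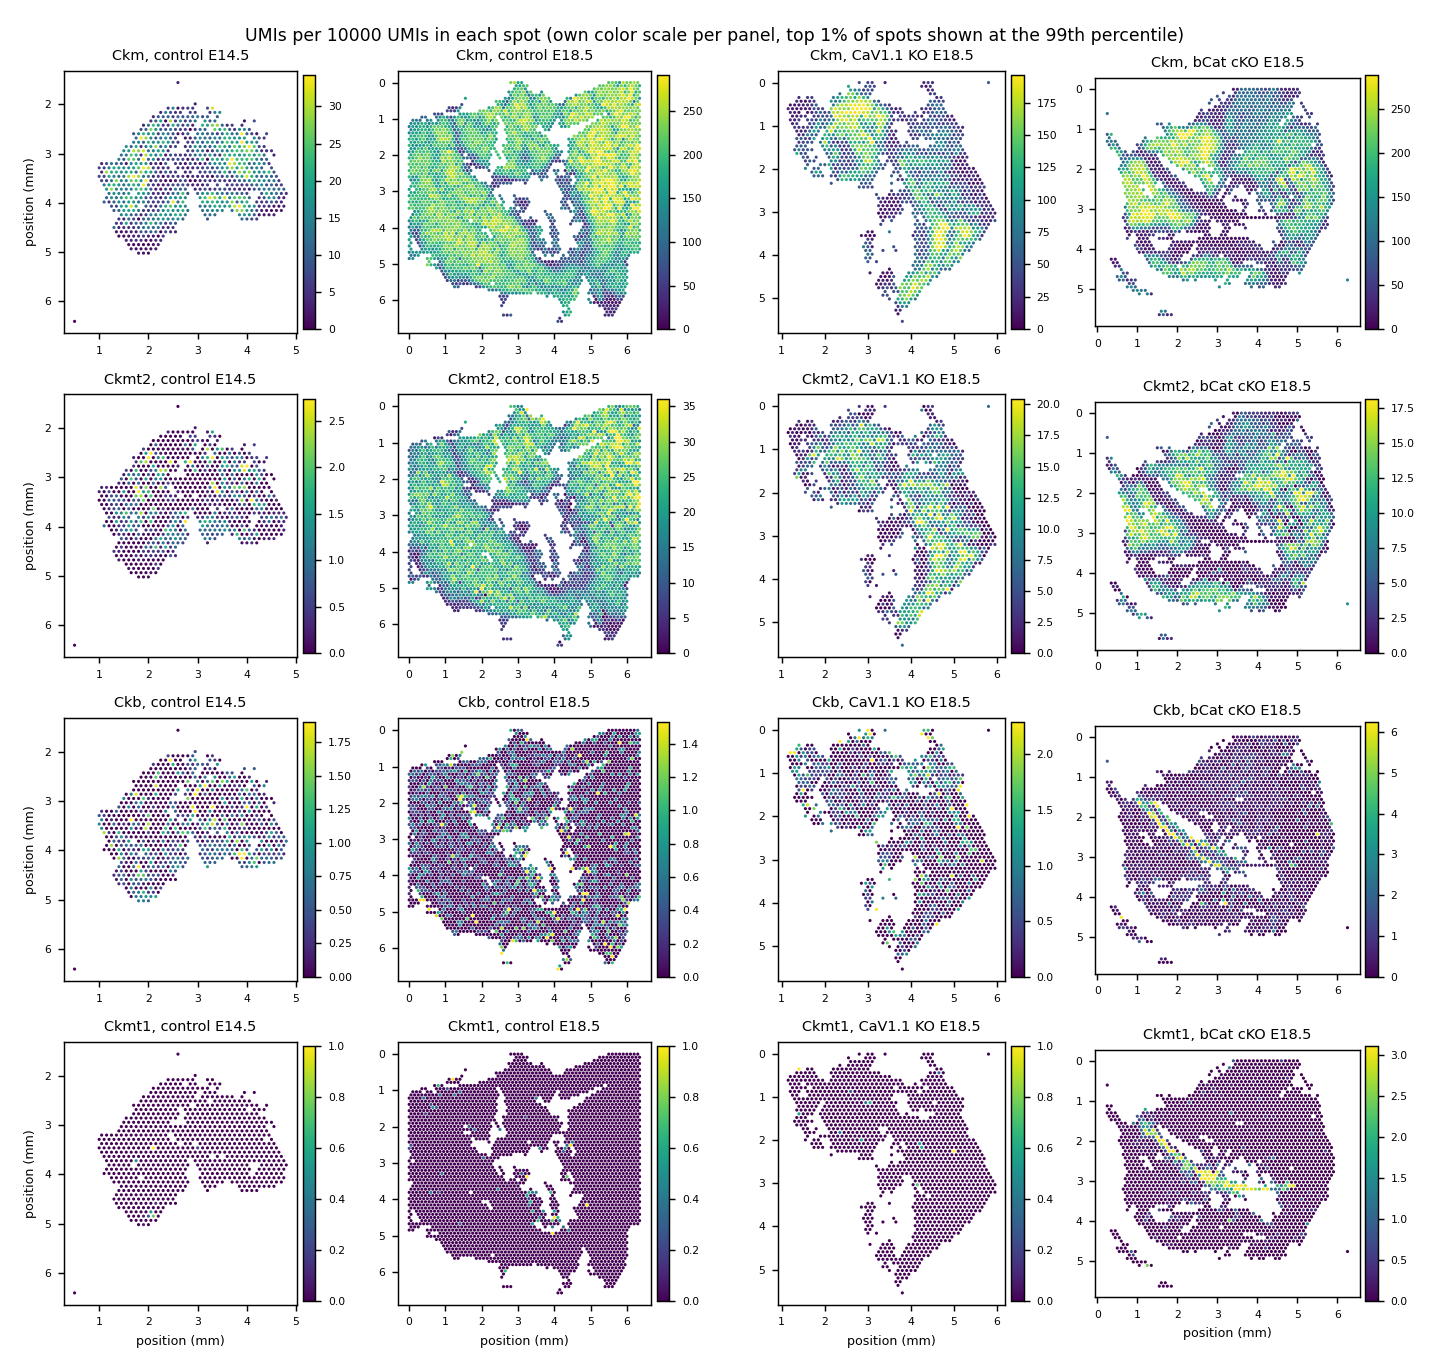
Spot maps of the 4 creatine kinases (rows) in 1 control section at E14.5, 1 control section at E18.5, the CaV1.1 KO at E18.5 and the β-cat cKO at E18.5 (columns). Axes give position in mm, and color the UMIs per 10000 UMIs of the spot on a scale of its own in each panel. Ckm and Ckmt2 fill the muscle of all 4 sections, whereas Ckb and Ckmt1 are brightest in a narrow band of the cKO section that is dark for Ckm.

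Most partners of the creatine kinases rose with stage. The list of 16 genes for creatine supply and adenylate transfer, of which 13 were analysed here, had 8 called higher and 3 lower in E18.5 control muscle, with a median log2 difference of 1.01 beside -0.01 for all genes tested. *Slc25a4*, which exchanges ATP and ADP across the inner mitochondrial membrane, rose from 1119, 975 and 1020.2 TMM-scaled CPM to 9236 and 9262 (3.16 ± 0.12, adjusted p = 1.08e-06). *Ampd1*, the AMP deaminase of muscle, rose by 2.57 ± 0.18, while *Ak4*, a mitochondrial adenylate kinase, fell by 1.47 and *Ampd2*, an AMP deaminase of other tissues, fell by 0.86. Of 20 genes of glycolysis and glycogen breakdown 16 were analysed here, and 12 were called higher and 2 lower, with a median of 1.87. *Pgm1*, a phosphoglucomutase, rose from 13.0, 11.2 and 11.4 to 187 and 193 (4.01 ± 0.09), and *Pygm*, muscle glycogen phosphorylase, from 325, 204 and 227 to 3859 and 3942 (3.95 ± 0.21). *Pgam1* and *Pfkl*, forms of phosphoglycerate mutase and phosphofructokinase found in many tissues, fell by 0.76 and 0.75. Of 5 M-band genes, whose proteins hold part of the muscle subunit, 4 rose, led by *Myom1* (2.70 ± 0.12) and *Myom2* (2.42 ± 0.14), with a median of 2.40. The 33.2% of all genes called higher and 32.3% called lower are the background of these counts.

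In the CaV1.1 KO at E14.5 both muscle enzymes were far below the controls. *Ckm* stood at 88.4 TMM-scaled CPM in its muscle spots, against 1309.9, 869 and 898 in the controls, a fall of 3.54 ± 0.31 on the log2 scale or 11.6-fold (adjusted p = 0.00577, edgeR's quasi-likelihood test). *Ckmt2* stood at 6.06 against 58.5, 35.7 and 35.5 and fell by 2.84 ± 0.35, 7.14-fold (adjusted p = 0.0126). The KO section lies below each control for both. *Ckb* was at 46.2, above each control (0.43 ± 0.16, adjusted p = 0.230), and *Ckmt1* had 2 UMIs, too few for a fold. Thus 2 of the 3 genes tested were called, where 2.08% of all genes were. Muscle spots with a *Ckm* UMI made up 68.8% in the KO and at least 99.5% in each control. In the KO the 9 muscle spot genes were at 16235 raw CPM, below the 21642 to 27362 of the controls, with none of the 9 called. Relative to them *Ckm* was at 6.58 UMIs per 1000 in the KO against 48.6 to 54.9, and *Ckmt2* at 0.451 against 1.92 to 2.45, so both were low on this scale as well. The genes of erythrocytes summed to 1803 raw CPM in KO muscle, within the 116 to 3689 of the controls.

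At E18.5 both enzymes were again lower in the KO, by a smaller factor. *Ckm* stood at 10627 TMM-scaled CPM in KO muscle against 27138 and 25589.5 in the controls (-1.31 ± 0.28, 2.48-fold, adjusted p = 0.0143) and *Ckmt2* at 1019 against 2855 and 2909 (-1.50 ± 0.31, 2.83-fold, adjusted p = 0.0130). *Ckb* at 28.0 lay below 29.5 and 33.6 (-0.17 ± 0.18, adjusted p = 0.500), and *Ckmt1*, with 8 UMIs, differed by -1.45 ± 0.96 (adjusted p = 0.303), a value that rests on single controls, since it was -2.17 and called without E18.5 control 1 (adjusted p = 0.035) and 0.031 without E18.5 control 2. The 2 calls among 4 genes compare with 25.7% of all genes. The fall of *Ckm* was smaller than at E14.5, by 2.22 ± 0.37 on the log2 scale (adjusted p = 0.0257 for the difference, 6.4% of genes called), and that of *Ckmt2* by 1.34 ± 0.43, which was not called (adjusted p = 0.103) except without E14.5 control 1 (1.05, adjusted p = 0.018). The call for *Ckm* was lost without E14.5 control 3 (2.31, adjusted p = 0.077). Muscle genes as a whole moved with these results. The 9 that define muscle spots were at 71384 raw CPM in the KO and at 128417 and 131917 in the controls, and all 9 were called lower. Relative to them *Ckm* was level, at 158 UMIs per 1000 in the KO and 153 and 142 in the controls, and *Ckmt2* was at 15.1 against 16.1 and 16.1. With scaling to the 9 genes the difference of *Ckm* was 0.09 and that of *Ckmt2* -0.10, neither called, while the median of all genes rose to 1.40 on this scale and *Ckb*, at 1.23, was below it. A smaller share of muscle in the spots and less RNA of all muscle genes cannot be told apart here.

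The partner genes fell along with the muscle enzymes in the KO at E18.5. Of the 13 creatine and adenylate genes 9 were called lower and 2 higher, with a median of -0.91, and of the 16 glycolytic genes 12 lower and 1 higher, with a median of -0.90, where 15.2% of all genes were called lower and 10.6% higher and the median was 0.00. *Gamt*, the enzyme that makes creatine in its last step, fell by 1.40 on the log2 scale (194 TMM-scaled CPM against 552 and 471), and *Ampd1* by 1.29. *Ampd3* and *Ampd2*, which also encode AMP deaminases, rose by 1.57 and 0.75. *Eno3*, the muscle enolase, fell by 1.38, from 12069 and 11083 to 4460, and *Aldoc*, the brain aldolase, rose by 1.21. *Gapdh* fell by 1.77, but its probe gave only 0.986 TMM-scaled CPM in the KO and 3.54 and 3.19 in the controls. *Myom1* and *Myom2* fell by 1.45 and 0.95 (3 of 5 M-band genes called lower, median -0.58). At E14.5 the KO had 1 called partner gene, *Ampd1* (-1.87, adjusted p = 0.0183), and 0 called among the 16 glycolytic and 5 M-band genes by edgeR, with medians of -0.07, -0.09 and -0.68. In that comparison 2.08% of all genes were called, so few calls are the background of these counts.

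In the β-cat cKO the mitochondrial muscle enzyme was called lower and the cytosolic one was not. In its muscle spots *Ckmt2* stood at 1068 TMM-scaled CPM against 2855 and 2909 in the E18.5 controls, a fall of 1.43 ± 0.31 on the log2 scale (2.70-fold, adjusted p = 0.0327). *Ckm* stood at 19906 against 27138 and 25589.5 (-0.41 ± 0.27, adjusted p = 0.391). The cKO section is below both controls for each of them, but only *Ckmt2* was called. The paper reports decreased expression of both genes in muscle clusters of the cKO, where values of single spots were compared. Costal and crural muscle were pooled here. *Ckb* was at 46.2, above 29.5 and 33.6 (0.55 ± 0.17, adjusted p = 0.0837), and *Ckmt1* at 4.99 against 0.454 and 2.11 (1.97 ± 0.73, adjusted p = 0.140). The value of *Ckmt1* was 1.24 without E18.5 control 1 and 3.45 without E18.5 control 2, where it was called (adjusted p = 0.019). *Ckb* was called without E14.5 control 1 (0.55, adjusted p = 0.039). Other spots of the cKO held 92.8 raw CPM of *Ckmt1* and 145 of *Ckb*. Whether tissue of that kind adds to the levels of these genes in its muscle spots was not tested. In muscle spots 1 of 4 genes was called, where 8.8% of all genes were. The ratio of *Ckmt2* to *Ckm* UMIs was 0.0536 in the cKO, 0.0959 in the KO at E18.5 and 0.105 and 0.114 in the controls. Muscle spot genes summed to 105199 raw CPM in the cKO, with none called, and relative to them *Ckm* was at 160 UMIs per 1000 (controls 153 and 142) and *Ckmt2* at 8.60 (controls 16.1 and 16.1). The call for *Ckmt2* was lost without E14.5 control 3 (-1.43, adjusted p = 0.064), without E18.5 control 1 (-1.45, adjusted p = 0.050) and without E18.5 control 2 (-1.42, adjusted p = 0.064), while *Ckm* was called in the fit of E18.5 sections alone (-0.41, adjusted p = 0.043) and without E14.5 control 1 (-0.41, adjusted p = 0.031).

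Some genes of the partner, glycolytic and M-band lists were called lower in cKO muscle. *Slc25a4* (5099.7 TMM-scaled CPM against 9236 and 9262, -0.86 ± 0.17) and *Ak3*, an adenylate kinase of the mitochondrial matrix (-0.70 ± 0.12), were the 2 called partner genes of 13, with a median of -0.25. Of 16 glycolytic genes 3 were called lower, among them *Pfkp* (-0.88, adjusted p = 0.0496) and *Pgm1* (-0.83, adjusted p = 0.00763), with a median of -0.59, and of 5 M-band genes *Myom1* (-0.72) and *Myom3* (-0.67), with a median of -0.34. No gene of these lists was called higher in this comparison by edgeR, and 5.62% of all genes were called lower and 3.18% higher. Between KO and cKO at E18.5, which share their controls, *Ckm* differed by -0.91 ± 0.31 (adjusted p = 0.119), *Ckmt2* by -0.07 ± 0.34 (adjusted p = 0.922), *Ckb* by -0.72 ± 0.20 (adjusted p = 0.0720) and *Ckmt1* by -3.42 ± 1.05 (adjusted p = 0.0948). None was called by edgeR on the TMM scale, where 7.3% of all genes were. Scaled to the 9 muscle spot genes, *Ckmt2* differed by 0.81, where the median of all genes was 0.89. Per 1000 UMIs of these 9 genes *Ckmt2* was at 15.1 in the KO and at 8.60 in the cKO. At an unadjusted p under 0.05 *Ckm*, *Ckb* and *Ckmt1* passed, and DESeq2 called *Ckm* and *Ckb*. Without E14.5 control 1 edgeR called *Ckm* (adjusted p = 0.0038) and *Ckb* (adjusted p = 0.032), and without either E18.5 control it called *Ckmt1* (adjusted p = 0.014 and 0.017), at nearly the same differences.

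Within muscle both muscle enzymes were higher in the center at E14.5 and lower there at E18.5, though neither difference was called relative to the 9 muscle spot genes. The center, the 15% of muscle spots highest for 8 endplate genes, was compared with intermediate muscle in control sections. At E14.5 *Ckm* stood at 1507, 1144 and 1095 TMM-scaled CPM in the center and at 1282, 844 and 900.05 in intermediate muscle, higher in each section (0.32 ± 0.05, adjusted p = 1.64e-05). At E18.5 it stood at 22328 and 22099 against 30081 and 28137, lower in each (-0.39 ± 0.06, adjusted p = 9.95e-06). *Ckmt2* was at 73.0, 48.7 and 52.3 against 56.7, 35.6 and 35.0 at E14.5 (0.44 ± 0.08, adjusted p = 1.41e-04) and at 2657 and 2888 against 3162 and 3205 at E18.5 (-0.20 ± 0.05, adjusted p = 0.00715). These stage differences were called for *Ckm* (-0.71 ± 0.07, adjusted p = 1.01e-07) and *Ckmt2* (-0.64 ± 0.09, adjusted p = 1.49e-05). *Ckb* differed little, by 0.13 ± 0.08 and 0.22 ± 0.08 (adjusted p = 0.320 and 0.0596). Called genes made up 2 of 3 at E14.5, against 15.8% of all 13555 genes, 2 of 4 at E18.5, against 13.2%, and 2 of 3 for the stage difference, against 14.8%. The 9 muscle spot genes moved with them, with log2 ratios of center to intermediate muscle of 0.16, 0.35 and 0.16 at E14.5 and -0.17 and -0.12 at E18.5. With scaling to these genes no center effect of *Ckm* or *Ckmt2* was called (0.04 and 0.16 at E14.5, -0.11 and 0.08 at E18.5), and both stage differences lost their calls (*Ckm* -0.14 and *Ckmt2* -0.083, adjusted p = 0.14 and 0.55). *Ckb* at E18.5 was called on this scale (0.50), where the median of all genes was 0.24, and on the TMM scale without E14.5 control 3 (0.25, adjusted p = 0.024). The call for *Ckmt2* at E18.5 was also lost without E18.5 control 1 (-0.15, adjusted p = 0.28) and with DESeq2 (-0.19, adjusted p = 0.078).

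The periphery, the 15% of muscle spots highest for 4 genes of the myotendinous junction, held less of both muscle enzymes at each stage. *Ckm* was at 982, 711 and 767 TMM-scaled CPM in the periphery at E14.5 (-0.29 ± 0.05 against intermediate muscle, adjusted p = 2.27e-04) and at 19236 and 17555 at E18.5 (-0.66 ± 0.06, adjusted p = 2.00e-10). *Ckmt2* was at 38.5, 22.6 and 23.6 (-0.60 ± 0.10, adjusted p = 1.86e-04) and at 1743 and 1588 (-0.93 ± 0.05, adjusted p = 3.85e-14). All 5 sections showed this direction for both genes. *Ckb* was at 38.5, 31.2 and 35.5 (0.05 ± 0.09, adjusted p = 0.840) and at 31.7 and 39.1, above intermediate muscle with 28.2 and 30.9 (0.25 ± 0.08, adjusted p = 0.0125), a call lost without E18.5 control 2 (0.16, adjusted p = 0.36). Genes called numbered 2 of 3 at E14.5, against 7.01% of all genes, and 3 of 4 at E18.5, against 33.2%. The stage difference was called for *Ckm* (-0.37 ± 0.07, adjusted p = 9.45e-04, against 11.8% of genes) and not for *Ckmt2* (-0.33 ± 0.12, adjusted p = 0.0639), which was called without E18.5 control 1 (-0.41, adjusted p = 0.024). The call for *Ckm* was lost without E14.5 control 3 (-0.26, adjusted p = 0.061). For the muscle spot genes the same comparison gave log2 ratios of periphery to intermediate muscle of 0.10, 0.29 and 0.01 at E14.5 and -0.22 and -0.25 at E18.5. Scaled to them, *Ckm* and *Ckmt2* were called lower in the periphery at both stages, but the stage difference of *Ckm* turned to 0.21 (adjusted p = 0.030), where the median of all genes was 0.57.

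Muscle rich in fast fiber genes and muscle rich in slow fiber genes, equal groups from the top and the bottom of muscle spots ranked by 5 fast genes minus 6 slow genes, differed in *Ckm*, in opposite directions at the 2 stages on the TMM scale. The paper found separate type I and type IIb muscle clusters at E18.5 only. It also detected the fast markers *Myh1* and *Myh4* in the muscle center at E14.5, and reads this as specification already under way. Without separate clusters at E14.5, the E14.5 groups need not stand for slow and fast fibers. At E14.5 *Ckm* was lower in fast-rich spots, with 1118, 698 and 793 against 1480.5, 1034 and 980.2 TMM-scaled CPM (-0.43 ± 0.06, adjusted p = 4.79e-04), and at E18.5 it was higher, with 31650.0 and 29830.4 against 23030.3 and 20886 (0.49 ± 0.08, adjusted p = 1.59e-04). *Ckmt2* was at 56.5, 34.1 and 31.6 against 53.7, 38.4 and 38.7, with no common direction (-0.11 ± 0.09, adjusted p = 0.590), and then at 3285 and 3381 against 2465 and 2414 (0.45 ± 0.07, adjusted p = 7.90e-05). *Ckb* was at 40.6, 31.0 and 29.9 against 28.0, 31.1 and 33.4 (0.12 ± 0.10, adjusted p = 0.612), and at 23.3 and 27.7 against 33.1 and 36.2, lower in fast-rich spots (-0.45 ± 0.10, adjusted p = 0.00317). The differences between stages were called for *Ckm* (0.91 ± 0.10, adjusted p = 9.89e-06), *Ckmt2* (0.56 ± 0.11, adjusted p = 0.00259) and *Ckb* (-0.57 ± 0.14, adjusted p = 0.0137). The 1 of 3 genes called at E14.5 compares with 3.61% of all 13505 genes, the 3 of 4 at E18.5 with 14.8%, and the 3 of 3 for the stage difference with 8.27%. Ranked in this way, muscle spot genes had log2 ratios of fast-rich to slow-rich spots of -0.26, -0.47 and -0.21 at E14.5 and 0.19 and 0.22 at E18.5, and with scaling to them no fast-rich effect of *Ckm* was called (-0.07 and 0.13), nor that of *Ckmt2* at E18.5 (0.10). On the same scale the stage difference of *Ckm* was 0.20 and lost its call (adjusted p = 0.16), and that of *Ckmt2* turned to -0.16 and was not called (adjusted p = 0.33). The calls for *Ckb* were lost without E18.5 control 1 (-0.38, adjusted p = 0.18) or without E18.5 control 2 (-0.51, adjusted p = 0.054), and its stage difference was lost without either of them (-0.51 and -0.63, adjusted p = 0.14 and 0.073) and without E14.5 control 1 (-0.39, adjusted p = 0.060).

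**Figure D3:**
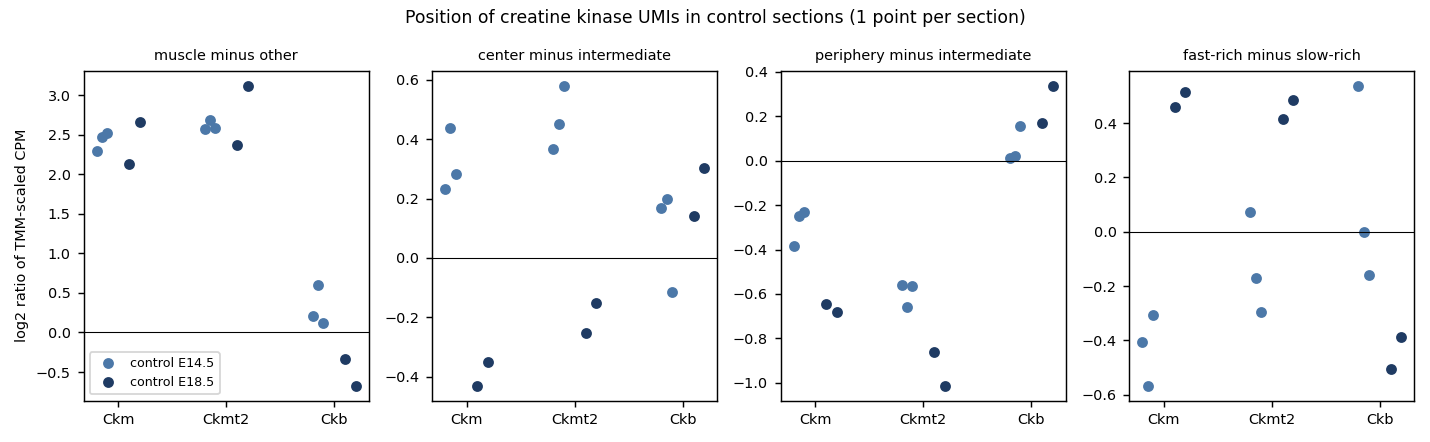
Log2 ratio of TMM-scaled CPM between regions for Ckm, Ckmt2 and Ckb, 1 point per control section, at E14.5 (light) and E18.5 (dark), with a scale of its own in each panel. Ckm and Ckmt2 lie above 0 for center minus intermediate muscle at E14.5 and below 0 at E18.5, below 0 for periphery minus intermediate at both stages, and above 0 for fast-rich minus slow-rich muscle at E18.5.

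In the mutants, with 1 section each, regions chosen by the same genes were read as raw CPM and not tested. The paper reports that *Chrna1* and *Musk*, which are among the endplate genes used, spread beyond the fiber center in the KO at E18.5. Center spots of that section may therefore lie elsewhere along the fibers. The paper also reports changed *Myh7* and *Myh4*, which are among the fast and slow ranking genes, in E18.5 muscle of the KO and of the cKO. Fast-rich and slow-rich spots of these sections need not match those of the controls. The KO at E14.5 had 130 *Ckm* CPM in the center, 95.7 in intermediate muscle and 119 in the periphery, and 76.4 in fast-rich against 177 in slow-rich spots. The KO at E18.5 had 11830.4 in the center, 11302 in intermediate muscle and 10196 in the periphery, and 15033 in fast-rich against 7742 in slow-rich spots. In the cKO the values were 14533, 18423 and 11847, and 21740.0 in fast-rich against 11483 in slow-rich spots. The ratio of fast-rich to slow-rich levels of the 9 muscle spot genes was 0.78 in the KO at E18.5 and 0.57 in the cKO on the log2 scale, larger than in either E18.5 control. *Ckmt2* in the cKO stood at 1203 CPM in fast-rich and 562 in slow-rich spots, against 2297 and 1886 in E18.5 control 1 and 2379 and 1909 in control 2. Per 1000 UMIs of the 9 muscle spot genes it was at 9.64 and 6.71 in the cKO. The controls had 16.68 and 15.62, and 16.73 and 15.65, on this scale.

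Outside muscle *Ckm* was lower and was still found. In other spots within 150 µm of a muscle spot *Ckm* was at 251 to 502 raw CPM in the E14.5 controls and at 7095 and 5843 in the E18.5 controls, and at 150 to 400 µm it was at 149 to 270 and at 6595 and 4260.2. Beyond 400 µm it was at 7614 in the 20 spots of E18.5 control 1 and at 1406 in the 17 spots of control 2. At E18.5 *Ckm* had a UMI in 100% of other spots of both controls. The stage difference in other spots resembled that in muscle. *Ckm* was higher at E18.5 than at E14.5 by 4.79 ± 0.33 (adjusted p = 0.00163), *Ckmt2* by 5.98 ± 0.34 (adjusted p = 0.00114) and *Ckmt1* by 2.91 ± 0.86 (adjusted p = 0.0487), so that 3 of 4 genes were called, against 30.6% of 14799 genes. *Ckb* differed by 0.77 ± 0.25 (adjusted p = 0.0635), and was called without E14.5 control 1 (0.98, adjusted p = 0.039). *Ckmt1* rested on 22 UMIs at E14.5, of which 21 came from control 1, and 87 at E18.5, a ratio in raw CPM of 5.89 (95% counting interval 3.66 to 9.89), and its call was lost without E14.5 control 2 or 3 or without either E18.5 control (adjusted p from 0.072 to 0.12). With only the sections made by Space Ranger 2.0.1, which leave 1 control at E14.5, the differences of *Ckm* (5.09) and *Ckmt2* (6.28) were not called (adjusted p = 0.077 for each, edgeR). Levels of the 9 muscle spot genes in other spots, 5636 to 8681 raw CPM at E14.5 and 47828 and 31869 at E18.5, were higher at E18.5 as well. Muscle fragments in these spots and RNA that spread from muscle cannot be told apart.

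**Figure D4:**
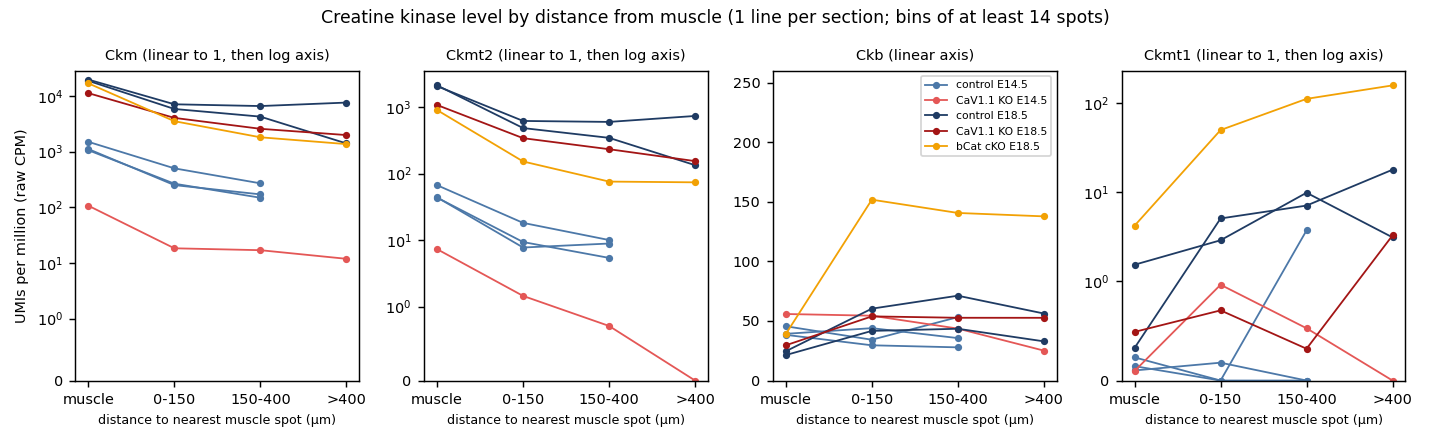
Level of each creatine kinase (raw CPM) in muscle spots and in other spots by distance to the nearest muscle spot, 1 line per section, for bins of at least 14 spots. Axes are linear to 1 and logarithmic above for Ckm, Ckmt2 and Ckmt1, and linear for Ckb. Ckm and Ckmt2 drop from muscle to the first bin in every section, while in the cKO Ckmt1 goes from 4.23 in muscle to 49.96, 112 and 158 and Ckb from 39.1 to 152, 141 and 138.

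*Ckm* in other spots of the KO at E14.5 was 16.5 TMM-scaled CPM against 335, 202 and 199, a log2 difference of -3.90 ± 0.51, and *Ckmt2* was 0.871 against 12.3, 7.17 and 7.54 (-3.40 ± 0.56). Neither was called by edgeR (adjusted p = 0.232 and 0.297), which called 0% of genes in this comparison and put 1208 at an unadjusted p under 0.05, both of these among them, whereas DESeq2 called both. In the KO at E18.5 *Ckm* differed by -1.01 ± 0.43, *Ckmt2* by -1.01 ± 0.41, *Ckb* by -0.17 ± 0.33 and *Ckmt1*, with 5 UMIs, by -3.41 ± 1.33 (adjusted p from 0.367 to 0.850), against 0.108% of all genes called. For *Ckmt1* the ratio to the controls in raw CPM was 0.105 (95% counting interval 0.0332 to 0.254). At an unadjusted p under 0.05 *Ckmt2* and *Ckmt1* passed.

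Outside muscle the cKO held more *Ckmt1* and *Ckb* UMIs than its controls. Its 580 other spots held 1189 *Ckmt1* UMIs, or 92.8 raw CPM, against 6.38 and 6.08 in the E18.5 controls, a ratio of 14.9 (95% counting interval 12.0 to 18.7), and 145 raw CPM of *Ckb* against 41.8 and 65.0. edgeR gave log2 differences of 3.73 ± 0.91 for *Ckmt1* and 1.29 ± 0.31 for *Ckb* (adjusted p = 0.147 for each), and -1.44 ± 0.44 for *Ckm* and -2.42 ± 0.44 for *Ckmt2* (adjusted p = 0.226 and 0.0749), none called, against 1.22% of genes. Without E14.5 control 1 *Ckmt1* (3.73, adjusted p = 0.0038) and *Ckmt2* (-2.42, adjusted p = 0.032) were called. All 4 passed an unadjusted p under 0.05, and DESeq2 called *Ckm*, *Ckmt2* and *Ckb*. The muscle spot genes were at 15871.5 raw CPM in other spots of the cKO, against 47828 and 31869 in the E18.5 controls. Relative to them *Ckm* was level, at 155 UMIs per 1000 (controls 145 and 154), and *Ckmt2* was low, at 6.80 (controls 12.96 and 12.74). The *Ckmt1* UMIs lay in 206 spots, up to 32 in 1 spot, and the 58 richest spots held 69.3% of them. On the spot map they form a narrow band, in which *Ckb* is high as well. Whether the tissue under this band belongs to the diaphragm was not tested.

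Epithelial and smooth muscle genes were high in the same section. The epithelium list of 5 genes, of which 4 were analysed here, summed to 372 raw CPM in other spots of the cKO, to 14.47 and 5.51 in the E18.5 controls and to 6.33 to 79.8 in the remaining sections. Among its members *Epcam* was at 139 against 0.284 and 0.145, and *Cdh1* at 157 against 2.98 and 0.724, while *Cldn6*, with 3 UMIs, was at 0.234 against 0 and 0. The 5 genes of the smooth muscle list summed to 2492 against 467 and 851, with *Myh11* at 290.1 against 28.5 and 52.0 and *Cnn1* at 191 against 7.80 and 20.3. Across the 580 other spots of the cKO *Ckmt1* had a Pearson r of 0.86 with the mean of the epithelial genes and 0.55 with that of the smooth muscle genes, and *Ckb* of 0.72 with smooth muscle, 0.56 with 5 neuronal genes and 0.23 with the epithelial genes. In a split chosen after these values were seen, the 317 other spots of the cKO with a UMI of an epithelial gene held 97.3% of its *Ckmt1* UMIs and 87.5% of its *Ckb* UMIs. In the 263 other spots with none, *Ckmt1* was at 8.66 raw CPM, beside 5.59 and 5.85 in such spots of the E18.5 controls, and *Ckb* at 63.05, beside 42.9 and 66.4. Spots with an epithelial UMI reached 127 CPM of *Ckmt1* in the cKO and 8.90 and 8.70 in the controls, where they numbered 70 and 27. *Ckb* was at 178 raw CPM in such spots of the cKO and at 38.6 and 50.5 in those of the controls. The shares of UMIs above are not corrected for the total UMIs of these spots, while the CPM values are.

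**Figure D5:**
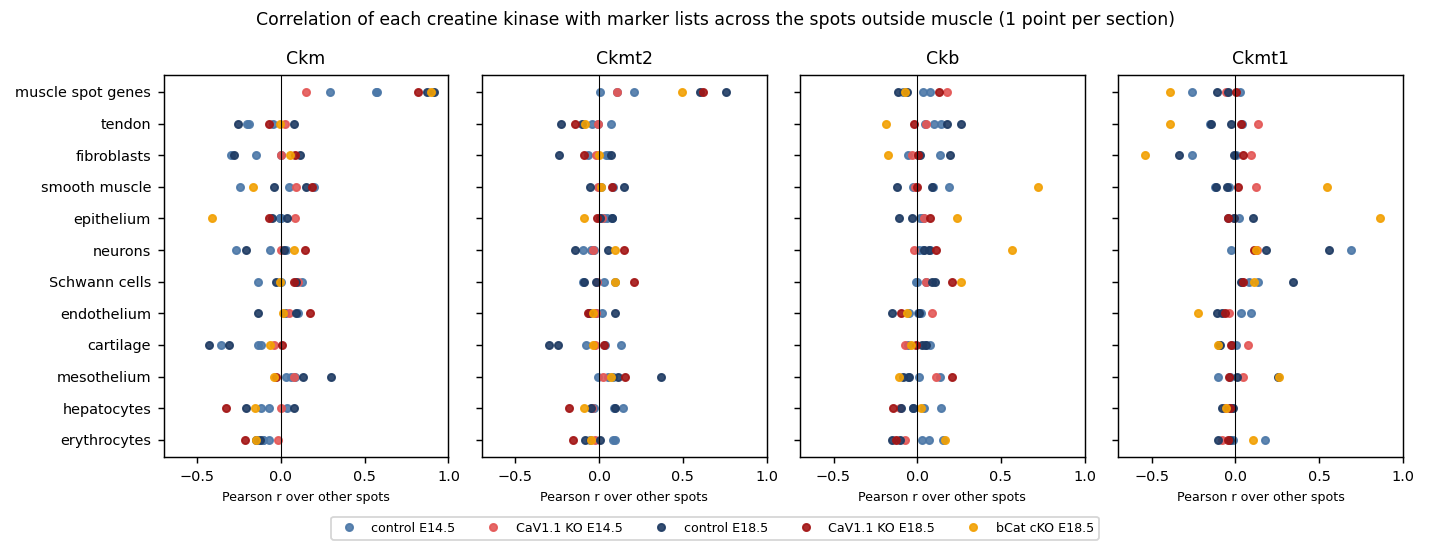
Pearson r across other spots between each creatine kinase and the mean of 12 marker gene lists, 1 point per section. Points for Ckm and Ckmt2 lie farthest right for the muscle spot genes, while the cKO point of Ckmt1 reaches 0.86 for epithelium and that of Ckb 0.72 for smooth muscle.

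In control sections *Ckmt1* and *Ckb* outside muscle had other companions. *Ckmt1* had r of 0.69 with the neuronal genes across 264 other spots of E14.5 control 1, where it had 21 UMIs in 6 spots, and of 0.56 across 326 other spots of E18.5 control 2, but of 0.18 in E18.5 control 1. For *Ckb* the highest r with any list in a control section was 0.26, with the tendon genes in E18.5 control 1. In tendon spots, other spots above Otsu's threshold for 4 tendon genes, the raw CPM of *Ckb* was 0.76 to 1.11 times that of muscle spots in the E14.5 controls and 2.59 and 3.07 times in the E18.5 controls. Raw CPM is not corrected for RNA composition. Scaled by library size alone, the median of all genes was lower in muscle than in other spots, by -0.19 on the log2 scale at E14.5 and -0.69 at E18.5. The tendon ratios therefore hold such a shift as well and were not tested.

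The genes whose spot pattern was most like that of each member were taken from 10184 genes (10185 for *Ckmt1*) by Pearson r across all kept spots, averaged over the 5 control sections. For *Ckm* these were *Myh8* (mean r 0.88), *Mylpf* (0.87), *Tpm2* (0.86), *Acta1* (0.86) and *Tnnt3* (0.85), genes of myosin, actin, tropomyosin and troponin of which *Mylpf*, *Acta1* and *Tnnt3* also defined muscle spots. For *Ckmt2* they were *Ckm* (0.61), *Atp2a1* (0.61), the calcium pump of fast fibers, *Eno3* (0.61), *Myh8* (0.60) and *Tnnt3* (0.60), with *Ckm* at 0.37 to 0.90 over sections. No gene came close to *Ckb*, whose best were *Colgalt1* (0.14), *Ptgis*, *Rrbp1*, *Kdelr2* and *Pdia3* (each 0.13), nor to *Ckmt1*, whose best were *Gap43*, *Pcbp3*, *Crmp1*, *Nnat* and *Stmn2* (each 0.11). At such r and counts these last lists are no finding.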

How the data were processed

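Deposited files hold raw UMI counts per gene and spot, which the authors made from 8 Visium FFPE sections with Space Ranger 2.0.0 or 2.0.1 (file headers) and the mouse probe set on mm10, and the row and column of each spot. Deposited tables of spatial autocorrelation hold the authors' own tests and were not used. Per the labels the controls form 2 groups and the mutants 3 groups of 1 section.

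Spots with at least 1000 UMIs were kept. Muscle spots lay above Otsu's threshold (scikit-image 0.26.0) for the mean log-normalized value (per 10000 UMIs) of *Acta1*, *Actn2*, *Des*, *Myl1*, *Mylpf*, *Neb*, *Ryr1*, *Tnnt3* and *Ttn*. Center and periphery were the 15% of muscle spots highest for *Ache*, *Chrna1*, *Chrnd*, *Chrng*, *Etv5*, *Musk*, *Prkar1a* and *Ufsp1*, or for *Col22a1*, *Ankrd1*, *Rxrg* and *Uchl1*. Fast-rich and slow-rich spots were ranked by *Myh4*, *Pvalb*, *Mybpc2*, *Actn3* and *Atp2a1* minus *Myh7*, *Myl2*, *Myl3*, *Tnnc1*, *Tnnt1* and *Tnni1*. UMIs were summed per section and tested over all genes with edgeR 4.0.16 (filterByExpr, TMM, quasi-likelihood test, Benjamini-Hochberg adjusted p below 0.05, "called") in R 4.3.3. SE is the log2 difference over the square root of F. The group fit of 5 groups left 3 residual degrees of freedom, and assumed that each lone mutant section varies like the controls. Position fits used the 5 control sections with the section as a block. Muscle and other sums of 1 section deviated together from their group means (r 0.71, 0.52 and 0.30 at E14.5 and 0.67 at E18.5). *Ckmt1* was not tested where both sides had at most 3 UMIs. Intervals cover counting error only.

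Alternatives were DESeq2 1.42.0, no low-count filter, other scalings, other spot choices, the replicate block and leaving out each control section. Fits by software version or stage alone, stage differences of position effects and the epithelial split were added after the data were seen. Other genes named from the lists are up to 2 called genes per list and direction with the largest change, and 5 genes per member by r among genes with a mean of at least 0.1 UMI per spot. The members and gene lists were chosen with earlier results of these data known. Scripts were tested on simulated data.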

Additional observations from a re-analysis of the deposited data

Results flagged for a closer look

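Each result listed here is a difference between the effects at E14.5 and at E18.5 that passed the test of the difference itself, by edgeR's quasi-likelihood test in the fit of the effects.

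The CaV1.1 KO effect on *Ckm* in muscle differed by 2.22 between the stages on the log2 scale, with the smaller fall at E18.5. The difference of *Ckb* between muscle and other spots of control sections differed by -0.85, from 0.34 at E14.5 to -0.51 at E18.5.

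The center effect differed by -0.71 for *Ckm* and by -0.64 for *Ckmt2*, with both genes higher in the center of each E14.5 control and lower in that of each E18.5 control. The periphery effect on *Ckm* differed by -0.37, with the larger deficit at E18.5. The difference between fast-rich and slow-rich muscle differed by 0.91 for *Ckm*, by 0.56 for *Ckmt2* and by -0.57 for *Ckb*. The 9 muscle spot genes shifted in the same direction as *Ckm* in center and fast-rich spots. With scaling to these genes the center differences were -0.14 for *Ckm* and -0.083 for *Ckmt2*, and that between fast-rich and slow-rich muscle was 0.20 for *Ckm*, none of them called, while that of *Ckmt2* turned to -0.16 (not called) and the periphery difference of *Ckm* to 0.21 (called).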

How the results depend on the processing

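Of 821 alternative values for the 80 member results, 669 kept direction and side of the threshold, 67 lost a call, 48 gained one and 37 changed sign. The causes of these changes were not tested. Values are log2 differences, 'by stage' means an effect at E18.5 minus that at E14.5, and fast and slow mean fast-rich and slow-rich muscle. For the position fits, which block on section, 'no replicate block' means that this section block was left out. With DESeq2, lost calls were stage in other spots *Ckmt1* 3.18, center at E18.5 *Ckmt2* -0.19, periphery at E18.5 *Ckb* 0.26, fast minus slow at E18.5 *Ckb* -0.44. With DESeq2, gained calls were KO minus cKO *Ckm* -0.92, *Ckb* -0.74, stage in other spots *Ckb* 0.77, KO at E14.5 in other spots *Ckm* -3.92, *Ckmt2* -3.43, cKO in other spots *Ckm* -1.42, *Ckmt2* -2.41, *Ckb* 1.30. With no low-count filter, gained calls were KO minus cKO *Ckb* -0.73, *Ckmt1* -3.43, cKO in other spots *Ckmt2* -2.41, muscle minus other at E14.5 *Ckb* 0.37. Scaled by library size alone, lost calls were stage in other spots *Ckmt1* 2.63. Scaled by library size alone, gained calls were stage in muscle *Ckb* -0.84, cKO in muscle *Ckb* 0.77, KO effect by stage *Ckmt2* 1.86. Scaled by library size alone, changed signs were KO at E18.5 in muscle *Ckb* 0.36, KO minus cKO *Ckmt2* 0.25, muscle minus other by stage *Ckmt2* -0.35. Scaled to the 9 muscle spot genes, lost calls were stage in muscle *Ckmt1* 0.19, KO at E18.5 in muscle *Ckmt2* -0.10, center at E14.5 *Ckm* 0.038, *Ckmt2* 0.16, center at E18.5 *Ckm* -0.11, fast minus slow at E14.5 *Ckm* -0.072, fast minus slow at E18.5 *Ckm* 0.13, *Ckmt2* 0.10, center by stage *Ckm* -0.14, *Ckmt2* -0.083, fast minus slow by stage *Ckm* 0.20. Scaled to the 9 muscle spot genes, gained calls were stage in muscle *Ckb* -3.28, KO at E14.5 in muscle *Ckb* 1.004, cKO in muscle *Ckb* 1.07, *Ckmt1* 2.50, KO minus cKO *Ckmt1* -2.54, KO effect by stage *Ckmt2* 2.15, center at E18.5 *Ckb* 0.50, fast minus slow at E14.5 *Ckb* 0.49, center by stage *Ckb* 0.67, periphery by stage *Ckb* 0.80. Scaled to the 9 muscle spot genes, changed signs were KO at E18.5 in muscle *Ckm* 0.094, *Ckb* 1.23, cKO in muscle *Ckm* 0.12, KO minus cKO *Ckmt2* 0.81, *Ckb* 0.16, KO effect by stage *Ckb* 0.23, center at E14.5 *Ckb* -0.17, periphery at E14.5 *Ckb* -0.10, center at E18.5 *Ckmt2* 0.082, periphery at E18.5 *Ckmt1* 0.23, fast minus slow at E14.5 *Ckmt2* 0.25, periphery by stage *Ckm* 0.21, *Ckmt2* 0.26, fast minus slow by stage *Ckmt2* -0.16. Over all kept spots, gained calls were cKO in muscle *Ckb* 0.92, *Ckmt1* 3.69. Over all kept spots, changed signs were stage in muscle *Ckb* 0.053. In the more muscle-rich part of muscle spots, gained calls were stage in muscle *Ckb* -0.41, cKO in muscle *Ckb* 0.61, KO minus cKO *Ckb* -0.95. With the replicate block, lost calls were KO at E14.5 in muscle *Ckm* -3.77, *Ckmt2* -3.09, cKO in muscle *Ckmt2* -1.61, KO effect by stage *Ckm* 2.28. With Space Ranger 2.0.1 sections only, lost calls were stage in muscle *Ckmt1* 2.73, stage in other spots *Ckm* 5.09, *Ckmt2* 6.28, *Ckmt1* 8.60. With Space Ranger 2.0.1 sections only, changed signs were stage in muscle *Ckb* 0.0014. With E18.5 sections alone, gained calls were cKO in muscle *Ckm* -0.41. In other spots over 150 µm from muscle, lost calls were stage in other spots *Ckmt1* 2.52. In the more muscle-rich part against spots over 150 µm away, changed signs were muscle minus other by stage *Ckmt2* -0.089, *Ckmt1* 0.043. With no replicate block, lost calls were muscle minus other at E18.5 *Ckb* -0.53, *Ckmt1* -2.05, muscle minus other by stage *Ckb* -0.83, center at E14.5 *Ckm* 0.31, *Ckmt2* 0.45, periphery at E14.5 *Ckm* -0.30, *Ckmt2* -0.60, center at E18.5 *Ckm* -0.39, *Ckmt2* -0.20, periphery at E18.5 *Ckm* -0.66, *Ckb* 0.25, fast minus slow at E14.5 *Ckm* -0.42, fast minus slow at E18.5 *Ckm* 0.49, *Ckmt2* 0.45, *Ckb* -0.44, center by stage *Ckm* -0.70, *Ckmt2* -0.65, periphery by stage *Ckm* -0.36, fast minus slow by stage *Ckm* 0.91, *Ckmt2* 0.52, *Ckb* -0.59. With no replicate block, changed signs were muscle minus other by stage *Ckmt1* 0.41. With regions of 10%, lost calls were center at E18.5 *Ckmt2* -0.17. With regions of 10%, changed signs were center at E18.5 *Ckmt1* -0.021. In intermediate muscle alone, gained calls were fast minus slow at E14.5 *Ckmt2* -0.34. In intermediate muscle alone, changed signs were fast minus slow at E14.5 *Ckb* -0.043. Leaving out each control section in turn, results that changed a call or sign ranged as follows: stage in muscle *Ckb* -0.22 to 0.0028, KO at E18.5 in muscle *Ckmt1* -2.17 to 0.031, cKO in muscle *Ckm* -0.45 to -0.36, *Ckmt2* -1.45 to -1.42, *Ckb* 0.46 to 0.65, *Ckmt1* 1.24 to 3.45, KO minus cKO *Ckm* -0.91 to -0.90, *Ckb* -0.72 to -0.72, *Ckmt1* -3.42 to -3.41, KO effect by stage *Ckm* 2.01 to 2.33, *Ckmt2* 1.05 to 1.46, stage in other spots *Ckb* 0.48 to 1.01, *Ckmt1* 2.22 to 6.15, KO at E14.5 in other spots *Ckmt1* -1.30 to 2.63, KO at E18.5 in other spots *Ckb* -0.41 to 0.12, cKO in other spots *Ckmt2* -2.73 to -2.02, *Ckmt1* 3.65 to 3.82, muscle minus other at E14.5 *Ckb* 0.17 to 0.42, *Ckmt1* -2.74 to 0.57, muscle minus other at E18.5 *Ckb* -0.71 to -0.35, *Ckmt1* -3.64 to -1.29, muscle minus other by stage *Ckm* -0.29 to 0.21, *Ckmt2* -0.25 to 0.47, *Ckb* -1.05 to -0.68, *Ckmt1* -2.94 to 0.87, periphery at E14.5 *Ckb* -0.018 to 0.074, center at E18.5 *Ckmt2* -0.25 to -0.15, *Ckb* 0.14 to 0.30, periphery at E18.5 *Ckb* 0.16 to 0.34, fast minus slow at E14.5 *Ckb* -0.076 to 0.22, fast minus slow at E18.5 *Ckb* -0.51 to -0.38, periphery by stage *Ckm* -0.39 to -0.26, *Ckmt2* -0.41 to -0.23, fast minus slow by stage *Ckb* -0.68 to -0.39. Replicate numbers did not pair the stages (r of same-numbered sections -0.36 and -0.35). The replicate block added to the group fits, which changed no other member call, therefore rests on a shared number only. This does not apply to the section block of the position fits. The number of all genes called by edgeR, or by DESeq2 where named, moved over 1.5 times under these settings, apart from leaving out 1 section. It went for KO at E14.5 in muscle from 308 to 731 with DESeq2, 536 with no filter, 4939 with muscle gene scaling, 0 with replicate block. KO at E18.5 in muscle went from 3819 to 7997 with library size, 12468 with muscle gene scaling. The cKO in muscle went from 1305 to 2826 with library size, 3886 with muscle gene scaling, 81 with replicate block. KO minus cKO went from 1082 to 2586 with library size, 8482 with muscle gene scaling, 533 with replicate block. KO effect by stage went from 949 to 1582 with DESeq2, 4655 with library size, 4715 with muscle gene scaling, 0 with replicate block. It went for stage in other spots from 4522 to 2340 with spots over 150 µm away, 0 with Space Ranger 2.0.1 only. KO at E14.5 in other spots went from 0 to 178 with DESeq2, 1 with no filter. KO at E18.5 in other spots went from 16 to 417 with DESeq2, 35 with no filter, 1 with spots over 150 µm away. The cKO in other spots went from 181 to 580 with DESeq2. Muscle minus other by stage went from 2969 to 6003 with library size, 1717 with no replicate block. It went for center at E14.5 from 2137 to 7450 with muscle gene scaling, 198 with no replicate block. Periphery at E14.5 went from 950 to 554 with DESeq2, 1943 with muscle gene scaling, 51 with no replicate block. Center at E18.5 went from 1787 to 739 with DESeq2, 4878 with muscle gene scaling, 147 with no replicate block. Periphery at E18.5 went from 4504 to 2598 with DESeq2, 8782 with muscle gene scaling, 1088 with no replicate block. Fast minus slow at E14.5 went from 487 to 179 with DESeq2, 735 with no filter, 9390 with muscle gene scaling, 840 with intermediate muscle alone, 0 with no replicate block. It went for fast minus slow at E18.5 from 1995 to 519 with DESeq2, 7657 with muscle gene scaling, 960 with intermediate muscle alone, 47 with no replicate block. Center by stage went from 2008 to 9477 with muscle gene scaling, 52 with no replicate block. Periphery by stage went from 1593 to 9068 with muscle gene scaling, 73 with no replicate block. Fast minus slow by stage went from 1117 to 10998 with muscle gene scaling, 2 with no replicate block. Leaving out 1 control section moved these counts, and with them the shares of all genes called, from KO at E14.5 in muscle 308 to a range of 65 to 391 (E14.5 control 3), cKO in muscle 1305 to a range of 576 to 1459 (E14.5 control 3, E18.5 control 2), KO minus cKO 1082 to a range of 512 to 1428 (E14.5 control 3), KO effect by stage 949 to a range of 0 to 1105 (E14.5 control 2, E14.5 control 3), stage in other spots 4522 to a range of 2389 to 3487 (E14.5 control 2, E18.5 control 1, E18.5 control 2), KO at E14.5 in other spots 0 to a range of 0 to 11 (E14.5 control 1), KO at E18.5 in other spots 16 to a range of 0 to 58 (E14.5 control 1, E14.5 control 2, E14.5 control 3, E18.5 control 1, E18.5 control 2), cKO in other spots 181 to a range of 62 to 307 (E14.5 control 1, E14.5 control 2, E14.5 control 3, E18.5 control 1, E18.5 control 2), muscle minus other at E14.5 5789 to a range of 2991 to 5979 (E14.5 control 2), muscle minus other by stage 2969 to a range of 1433 to 2692 (E14.5 control 1, E14.5 control 2, E18.5 control 2), center at E14.5 2137 to a range of 849 to 2061 (E14.5 control 1, E14.5 control 2), periphery at E14.5 950 to a range of 253 to 1255 (E14.5 control 1, E14.5 control 2), center at E18.5 1787 to a range of 531 to 1764 (E18.5 control 1, E18.5 control 2), periphery at E18.5 4504 to a range of 2482 to 4508 (E18.5 control 2), fast minus slow at E14.5 487 to a range of 42 to 598 (E14.5 control 2), fast minus slow at E18.5 1995 to a range of 769 to 2276 (E18.5 control 1, E18.5 control 2), center by stage 2008 to a range of 1021 to 1917 (E14.5 control 2, E18.5 control 1), periphery by stage 1593 to a range of 781 to 1603 (E14.5 control 2, E18.5 control 2), fast minus slow by stage 1117 to a range of 420 to 1103 (E14.5 control 2, E18.5 control 1, E18.5 control 2), where the control sections that moved a count over 1.5 times stand in parentheses. Scaling also moved the split of genes called higher/lower, for stage in muscle 4930/4796 against 2259/9033 (library size, median of all genes -0.73) and 209/13998 (muscle gene scaling, median of all genes -3.19), KO at E14.5 in muscle 79/229 against 4783/156 (muscle gene scaling, median of all genes 0.56), KO at E18.5 in muscle 1568/2251 against 7245/752 (library size, median of all genes 0.54) and 12366/102 (muscle gene scaling, median of all genes 1.40), cKO in muscle 471/834 against 2258/568 (library size, median of all genes 0.21) and 3652/234 (muscle gene scaling, median of all genes 0.52), KO minus cKO 425/657 against 2180/406 (library size, median of all genes 0.33) and 8262/220 (muscle gene scaling, median of all genes 0.89), KO effect by stage 329/620 against 4407/248 (library size, median of all genes 0.54) and 4661/54 (muscle gene scaling, median of all genes 0.86), stage in other spots 2453/2069 against 1663/3971 (library size, median of all genes -0.25), muscle minus other at E14.5 3243/2546 against 1677/4353 (library size, median of all genes -0.19), muscle minus other at E18.5 4400/3780 against 1670/9000 (library size, median of all genes -0.69), muscle minus other by stage 1921/1048 against 672/5331 (library size, median of all genes -0.46), center at E14.5 1257/880 against 215/7235 (muscle gene scaling, median of all genes -0.29), periphery at E14.5 560/390 against 238/1705 (muscle gene scaling, median of all genes -0.16), center at E18.5 595/1192 against 4835/43 (muscle gene scaling, median of all genes 0.24), periphery at E18.5 1540/2964 against 8569/213 (muscle gene scaling, median of all genes 0.40), fast minus slow at E14.5 200/287 against 9339/51 (muscle gene scaling, median of all genes 0.37), fast minus slow at E18.5 1236/759 against 81/7576 (muscle gene scaling, median of all genes -0.33), center by stage 683/1325 against 9438/39 (muscle gene scaling, median of all genes 0.55), periphery by stage 538/1055 against 9037/31 (muscle gene scaling, median of all genes 0.57), fast minus slow by stage 674/443 against 7/10991 (muscle gene scaling, median of all genes -0.72).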

Other observations

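Of the *Ckb* UMIs in muscle spots of E14.5 control 1, the richest 55 of 549 spots held 54.9%. In E14.5 controls 2 and 3 the richest 57 and 58 spots held 28.4% and 34.0%, and in the KO at E14.5 the richest 49 of 491 held 45.4%. Spots were ranked by raw UMIs, with no correction for the total UMIs of each spot. Whether uneven totals account for these shares was not tested. In the cKO, other spots with no UMI of an epithelial gene, of *Myh11* or of *Cnn1* numbered 188 and had 7.54 raw CPM of *Ckmt1* and 56.0 of *Ckb*. The same kind of spot had 6.45 and 7.78 raw CPM of *Ckmt1*, and 41.1 and 70.5 of *Ckb*, in the E18.5 controls. The ratio of tendon to muscle spots in raw CPM of *Ckb*, with no correction for RNA composition, was 1.76 in the KO at E18.5 and 1.73 in the cKO.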
